A study of Mus musculus with 2 samples.

Results

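The serpins of adult mouse lung are described here, taken as every protein-coding gene whose GENCODE mouse symbol begins with Serpin and that has a row in the gene tables of both libraries. There were 61 such genes among 43346 gene rows, of which 21474 were protein coding, and they are read by clade, the letter that follows the family name. The 7 Serpin genes of other annotated types were left out. The 2 libraries, replicate 1 and replicate 2, were made from polyadenylated RNA over 200 nt of lung from mixed-sex C57BL/6J littermates aged 8 weeks, and were read as stranded pairs of 76 nt. They form 1 group with the same donor record, so there is no control group and no p-value. The labels do not give the number of animals behind a library, and the spread may be partly technical.

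Most serpins are protease inhibitors that offer an exposed reactive centre loop as bait. The protease cuts the loop after a residue called P1, the loop inserts into the body of the serpin, and the protease is trapped as a covalent complex, so that P1 and its neighbours set which protease is held. Clade A, C, D, E, F and G members are mainly secreted inhibitors of neutrophil, coagulation, fibrinolytic and complement proteases, clade B members act mostly inside cells, and clade H is a collagen chaperone. In the lung, alpha-1-antitrypsin is the textbook shield of the alveolar wall against neutrophil elastase.

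The coding bases of 9 reactive centre loops are shown because the levels described further on concern genes that differ in this stretch. Each run is 69 bases, or 23 codons, read 5′ to 3′ from the glycine codon at the hinge, and comes from the GENCODE M21 transcript on mm10. In the 5 alpha-1-antitrypsin copies, capitals mark the 15 of 69 positions at which the copies are not all alike.
Serpina1a: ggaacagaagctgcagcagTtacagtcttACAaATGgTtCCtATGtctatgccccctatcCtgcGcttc
Serpina1b: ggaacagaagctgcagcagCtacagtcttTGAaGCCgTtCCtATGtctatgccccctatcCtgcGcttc
Serpina1c: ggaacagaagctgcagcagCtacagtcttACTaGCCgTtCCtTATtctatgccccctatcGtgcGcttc
Serpina1d: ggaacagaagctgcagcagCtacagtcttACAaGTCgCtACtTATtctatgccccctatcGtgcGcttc
Serpina1e: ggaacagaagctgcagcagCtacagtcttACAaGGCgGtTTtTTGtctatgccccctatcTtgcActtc
These lie on the minus strand in the last coding exon, at chr12:103853762-103853830 for Serpina1a, chr12:103728329-103728397 for Serpina1b and chr12:103895099-103895167 for Serpina1c. The runs of Serpina1d and Serpina1e are at chr12:103763767-103763835 and chr12:103947105-103947173. The P1 codon, the last set of 3 capitals before tctatgcccc, encodes methionine in Serpina1a and Serpina1b, tyrosine in Serpina1c and Serpina1d, and leucine in Serpina1e.

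For 4 further genes, capitals mark the P1 codon and the one after it.
Serping1: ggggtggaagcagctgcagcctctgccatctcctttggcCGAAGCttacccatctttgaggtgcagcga
Serpine2: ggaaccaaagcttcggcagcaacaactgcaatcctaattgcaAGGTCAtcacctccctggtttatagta
Serpina3n: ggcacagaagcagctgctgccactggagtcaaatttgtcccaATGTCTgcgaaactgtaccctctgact
Serpinb6a: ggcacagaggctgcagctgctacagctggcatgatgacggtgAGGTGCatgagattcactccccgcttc
The P1 residue is arginine in Serping1, Serpine2 and Serpinb6a and methionine in Serpina3n. The loops of Serping1 (chr2:84765652-84765720, minus strand), Serpina3n (chr12:104413448-104413516, plus strand) and Serpinb6a (chr13:33918125-33918193, minus strand) each lie within the last exon. That of Serpine2 (chr1:79796866-79799492, minus strand) is divided between exons 7 and 8 of 9, so its genomic span includes an intron.

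Few serpins carried most of the serpin mRNA. At a threshold of 1 TPM (transcript abundance scaled by length and to a fixed library total) in both libraries, 18 of the 61 genes were detected (29.5%), against 12986 of 21474 protein-coding genes (60.5%). By clade, 8 of 24 clade A genes, 5 of 26 clade B genes, 2 of 3 in clade E, 1 of 2 in clade F and the single genes of clades G and H were detected, and none of clades C, D and I. The summed level of the 61 genes was 1661 TPM in replicate 1 and 1418 TPM in replicate 2, or 0.154% ± 0.0172 of all TPM (SD, n = 2). Serping1 alone held 45.5% of serpin TPM in replicate 1 and 53.9% in replicate 2, and the 7 highest genes together held 91.8% ± 3.94.

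Between the libraries the family was uneven. A mean count of 50 or more was reached by 28 members, and 12 of these were 2-fold or more apart (42.9%), against 6.66% of all 14708 genes under the same rule. Of these, 10 were higher in replicate 1 (background 4.45%) and 2 were higher in replicate 2 (background 2.21%). The 12 fell in 3 places: the clade B cluster on chromosome 1, the alpha-1-antitrypsin copies, and the Serpina3 genes beside them on chromosome 12. With library-size scaling the split was 11 and 0, and on log2(TPM + 0.1) it was 12 and 0, since Serpina3f and Serpina3m then came under 2-fold, Serpinb6a passed it under both settings (log2 ratios of 1.08 and 1.06) and Serpinb8 passed it on TPM (1.22). Under those settings the median log2 ratio of all genes averaging 10 counts or more was 0.15 and 0.22, against 0.02 with the TMM scaling used throughout (TMM sets libraries level by a trimmed mean of gene ratios). Over the 38 members averaging 10 counts or more, the median log2 ratio of replicate 1 over replicate 2 was 0.47, and 26 were above 0; without the clade B genes of chromosome 1 it was 0.15 over 30 members.

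**Figure D1:**
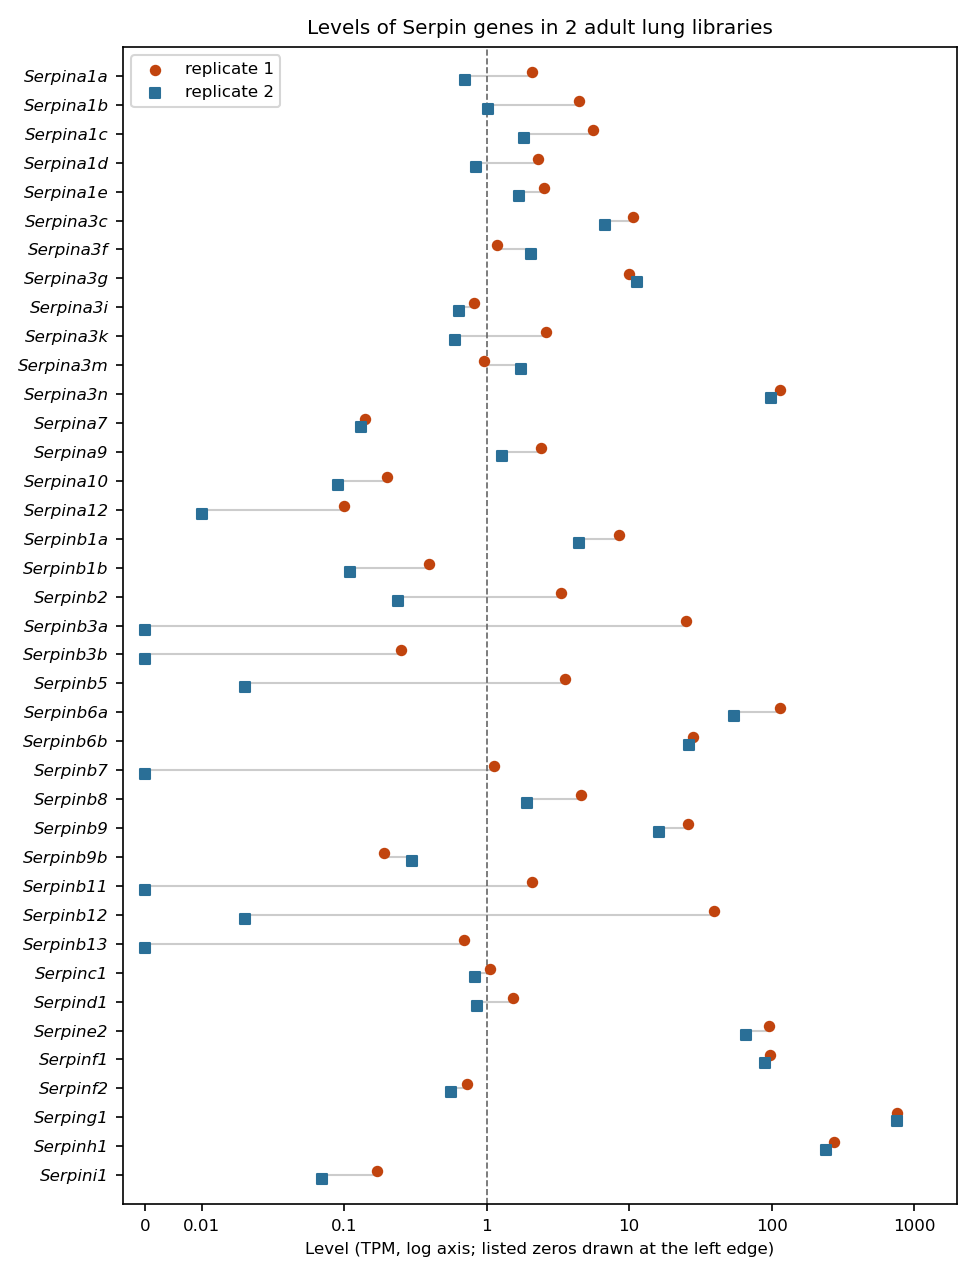
Level in TPM (log axis) of 39 serpin genes with at least 1 TPM or at least 10 counts in a library, in replicate 1 (circles) and replicate 2 (squares), with the 1 TPM threshold dashed and listed zeros at the left edge. Serping1 stands at the far right in both libraries, and the widest gaps belong to clade B genes such as Serpinb3a and Serpinb12.

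**Figure D2:**
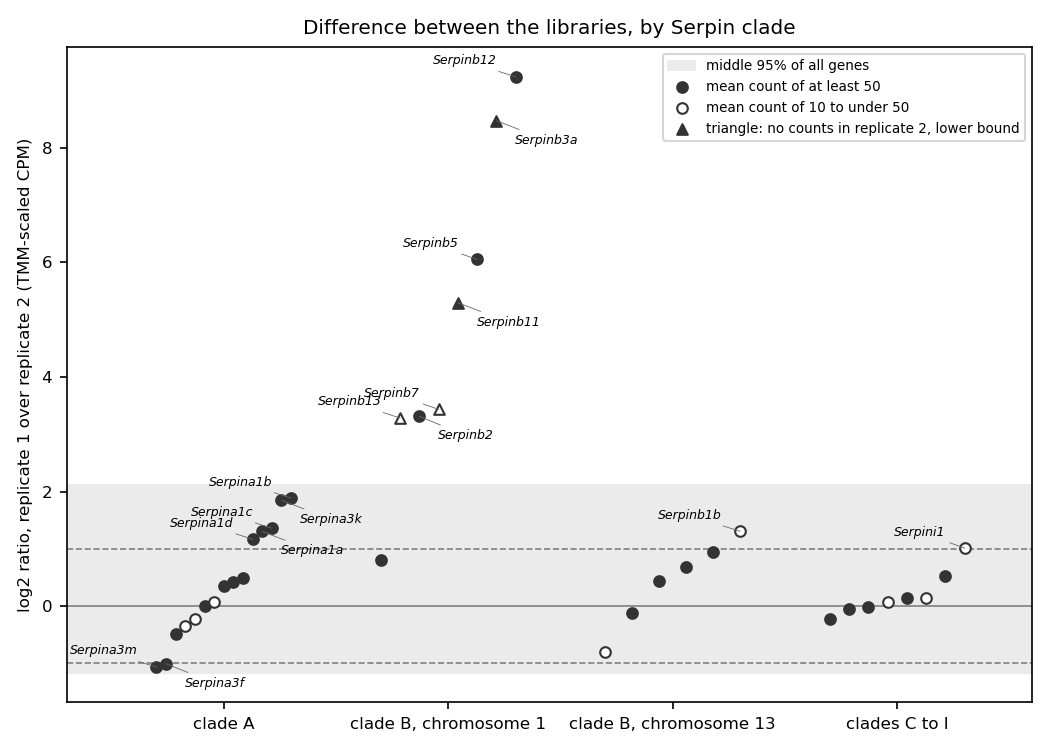
Log2 ratio of replicate 1 over replicate 2 for 37 serpin genes averaging 10 counts or more, in 4 groups, with the middle 95% of all 17334 genes shaded and 2-fold dashed. Triangles are lower bounds for genes with no counts in replicate 2. Apart from Serpinb8, members of the clade B cluster on chromosome 1 stand above the band, and those of chromosome 13 and of clades C to I lie inside it.

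The libraries had 48234745 gene counts in replicate 1 and 44182836 in replicate 2, of which serpins took 87412 and 71942. Lung markers were present in both: all 9 lung epithelial, 6 endothelial and 8 fibroblast and smooth muscle markers were detected and none was 2-fold apart. Markers of several other tissues were unequal, while none of the 3 brain and neuron markers averaging 50 counts or more was 2-fold apart. Brown adipocyte markers (3 of 4) exceeded 2-fold towards replicate 1, and white adipocyte markers (4 of 5) towards replicate 2. Squamous epithelium (10 of 10) and skeletal muscle (8 of 8) markers exceeded 2-fold towards replicate 1, with summed levels of 6010 and 2870 TPM in replicate 1 against 2.34 and 60.5 TPM in replicate 2. Pancreatic acinar (8 of 8) and intestinal (7 of 7) markers exceeded 2-fold towards replicate 2, with sums of 5.77 and 2.81 TPM in replicate 1 against 164 and 143 TPM in replicate 2. Over all genes averaging 50 counts or more, 4.45% passed 2-fold towards replicate 1 and 2.21% towards replicate 2. The origin of the transcripts of other tissues was not tested. In bulk tissue, fewer cells of a type and less RNA per cell cannot be told apart.

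Serping1, the C1 inhibitor that restrains C1r, C1s, plasma kallikrein and factor XIIa, was the leading serpin of lung (chr2:84765387-84775444). It stood at 755 TPM in replicate 1 and 764 TPM in replicate 2, on 33845 and 33080 counts, and ranked 121 among protein-coding genes by mean TPM. The counts, scaled to library size by TMM, gave a ratio of 0.854 (95% exact interval 0.841 to 0.867, counting error only), a log2 ratio of -0.23 that lies within the robust SD of 0.46 over all genes. Its complement targets were lower. C1s1 had 88.6 TPM in replicate 1 and 53.8 TPM in replicate 2, and C1ra had 56.0 and 47.8 TPM in replicates 1 and 2. Klkb1, the plasma kallikrein gene, had no row under that symbol and was not measured. Of the 6 complement proteases listed, 2 were detected and none of the 3 with enough counts was 2-fold apart. Masp2, a lectin pathway protease and the third by mean TPM, had 0.25 TPM in replicate 1 and 1.78 TPM in replicate 2; with 9 and 59 counts it was below the count minimum, at a fold of 0.127 (0.0555 to 0.258).

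Matrix serpins came next. Serpinh1, the collagen chaperone HSP47 of the endoplasmic reticulum, which inhibits no protease, had 274 TPM in replicate 1 and 242 TPM in replicate 2 (fold 0.964, 0.945 to 0.984). All 17 listed genes for its collagen clients and partner enzymes and receptors were detected and none was 2-fold apart. The highest were the basement membrane collagen genes Col4a1, at 236 TPM in replicate 1 and 237 TPM in replicate 2, and Col4a2, at 210 and 203 TPM, with the prolyl hydroxylase subunit P4hb at 225 and 179 TPM. Serpinf1, the non-inhibitory pigment epithelium-derived factor, had 97.3 TPM in replicate 1 and 89.2 TPM in replicate 2 (fold 0.988, 0.924 to 1.06). Pnpla2, the lipase also known as a receptor of that factor, was at 256 TPM in replicate 1 and 333 TPM in replicate 2. None of these was 2-fold apart, and the signs of the Serpinh1 and Serpinf1 log2 ratios, -0.05 and -0.02, turned positive with library-size scaling.

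Serpine2, protease nexin 1, which holds thrombin and urokinase at the cell surface, had 95.7 TPM in replicate 1 and 66.3 TPM in replicate 2. Its counts of 3809 in replicate 1 and 2878 in replicate 2 gave a fold of 1.10 (1.05 to 1.16), under 2-fold. Serpine3 had no counts in either library. Serpinf2, alpha-2-antiplasmin, had 52 counts in replicate 1 and 39 in replicate 2, at 0.73 and 0.56 TPM.

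Of the 4 fibrinolysis genes, 3 were detected. The urokinase receptor gene Plaur had 50.9 TPM in replicate 1 and 76.7 TPM in replicate 2, and Plat, tissue plasminogen activator, had 27.2 and 18.2 TPM in replicates 1 and 2. Plau, urokinase itself, was the member 2-fold apart, with 5.35 TPM in replicate 1 and 2.07 TPM in replicate 2 (fold 2.20, 1.83 to 2.67). Plasminogen mRNA (Plg) was under 1 TPM in both libraries.

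Serpina3n led clade A, with 115 TPM in replicate 1 and 98.5 TPM in replicate 2. It is the best-known mouse counterpart of human alpha-1-antichymotrypsin, the acute-phase inhibitor of cathepsin G. Its counts of 7702 in replicate 1 and 6438 in replicate 2 gave a fold of 0.998 (0.965 to 1.03). The 10 Serpina3 genes lie side by side on chromosome 12, where human has 1, and 4 of them were detected. Serpina3g, known in mouse as an intracellular inhibitor of cathepsins, had 9.97 TPM in replicate 1 and 11.4 TPM in replicate 2, and Serpina3c had 10.6 and 6.75 TPM in replicates 1 and 2. Their folds were 0.711 (0.627 to 0.806) and 1.34 (1.20 to 1.51), on either side of 1.

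The weakly expressed Serpina3 genes went both ways. Serpina3k, contrapsin, which inhibits trypsin-like proteases, had 174 counts in replicate 1 and 39 in replicate 2; the fold was 3.72 (2.62 to 5.41). Serpina3f, the fourth detected gene, had 79 counts in replicate 1 and 134 in replicate 2, and Serpina3m had 50 and 89 counts in replicates 1 and 2. Their folds were 0.492 (0.368 to 0.654) and 0.469 (0.325 to 0.670), the 2 serpins past 2-fold towards replicate 2. Serpina3i had 42 counts in replicate 1 and 45 in replicate 2. Coding sequences of these 10 genes are 34.9% to 90.8% identical in pairs, with gaps counted as differences. The low end comes from Serpina3g, annotated with a coding length of 744 bases against 1254 for Serpina3n. Pairs without Serpina3g are at least 68.2% identical. The annotated spans of Serpina3k and Serpina3m overlap on the same strand. The deposited posterior SD of the count, a measure of how reads could be divided within a library, was at most 0.07 counts for that pair.

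The alpha-1-antitrypsin genes, of which mouse has 5 adjacent copies where human has 1, were low in lung and higher in replicate 1. Serpina1a had 86 counts in replicate 1 and 28 in replicate 2, Serpina1b had 192 and 42, and Serpina1c had 231 and 74. Serpina1d had 97 counts in replicate 1 and 35 in replicate 2, while Serpina1e had 100 and 65. Summed over the 5, the level was 16.9 TPM in replicate 1 and 6.07 TPM in replicate 2, on 706 and 244 counts, a fold of 2.41 (2.08 to 2.80). In 4 of the 5 the difference passed 2-fold, from 2.31 for Serpina1d (1.56 to 3.51) to 3.81 for Serpina1b (2.72 to 5.46), and Serpina1e stood at 1.28 (0.930 to 1.78).

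The copies are 91.5% to 96.7% identical over their coding sequence, with gaps counted as differences. Over the loop bases printed above they are 85.5% to 94.2% identical. The low end of the coding range comes from Serpina1a, compared through Serpina1a-201, with an annotated coding length of 1308 bases against 1239 for Serpina1b-201. Serpina1a-201 had no counts in either library, and pairs without Serpina1a are at least 96.3% identical. With copies this alike, the division of reads among them is an estimate. The deposited posterior SD of the count, which measures that uncertainty within a library, was 10.2 in replicate 1 and 4.74 in replicate 2 for Serpina1a and 10.8 and 5.03 for Serpina1c. It was smaller for Serpina1e, at 1.87 in replicate 1 and 0.91 in replicate 2. Serpina1e, whose P1 is leucine, took 14.1% of the copies' counts in replicate 1 and 26.6% in replicate 2, and Serpina1b, whose P1 is methionine, took 27.2% and 17.3%. The annotated span of Serpina1b overlaps that of Serpina1d on the same strand; their posterior SDs were 4.84 and 3.52 counts in replicate 1 and 2.34 and 1.89 in replicate 2.

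**Figure D3:**
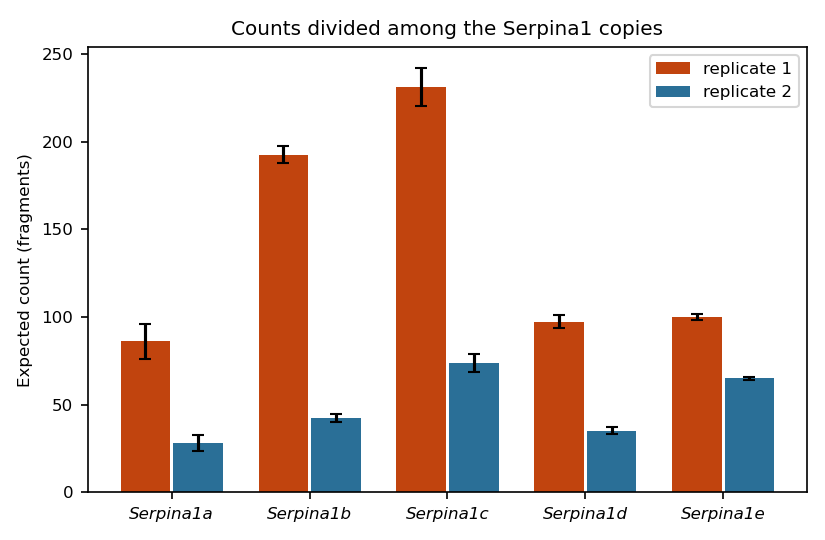
Expected counts (fragments) of the 5 alpha-1-antitrypsin copies in replicate 1 (left bars) and replicate 2 (right bars); error bars are the deposited posterior SD within a library and not a spread between libraries. All 5 are higher in replicate 1, by the widest margin in Serpina1c and Serpina1b.

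Serpina1 copies are made chiefly by hepatocytes in mouse. Of 10 hepatocyte markers, 6 were detected, none was at 0 in either library, and their summed level was 34.2 TPM in replicate 1 and 17.6 TPM in replicate 2. Of the 5 markers with enough counts, 2 were 2-fold or more higher in replicate 1, against 4.45% of all genes. These were Alb, serum albumin, with 10.9 TPM in replicate 1 and 3.76 TPM in replicate 2, and Ttr, transthyretin, with 4.31 and 1.69 TPM. The part of these transcripts in the Serpina1 and Serpina3k differences was not tested.

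Neutrophil and mast cell proteases, only some of which alpha-1-antitrypsin and Serpina3 inhibitors act on, were scarce at the mRNA level. Of 10 genes, 4 were detected and none of the 4 with a mean count of 50 or more was 2-fold apart. Levels of the 10 summed to 15.7 TPM in replicate 1 and 15.3 TPM in replicate 2. The 3 highest by mean TPM were the mast cell tryptase Tpsb2, with 5.65 TPM in replicate 1 and 5.82 TPM in replicate 2, the proteinase 3 gene Prtn3, with 3.16 and 4.66 TPM, and the mast cell chymase Mcpt4, with 1.88 and 1.60 TPM. Elane, neutrophil elastase, had 21 counts in replicate 1 and 3 in replicate 2; the ratio was 5.84 (1.74 to 30.6), below the count minimum.

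The inhibitors of coagulation were near the limit of detection. Serpinc1, antithrombin, had 34 counts in replicate 1 and 27 in replicate 2, at 1.06 and 0.82 TPM. Serpind1, the thrombin inhibitor heparin cofactor II, had 105 counts in replicate 1 and 60 in replicate 2; the fold was 1.46 (1.05 to 2.04). Serpina10, the protein Z-dependent inhibitor of factor Xa, had 14 counts in replicate 1 and 11 in replicate 2. These liver products were each under 2-fold apart. By contrast Thbd, thrombomodulin, the endothelial cofactor that turns thrombin to protein C activation, was at 488 TPM in replicate 1 and 557 TPM in replicate 2. F3, tissue factor, had 28.9 TPM in replicate 1 and 37.9 TPM in replicate 2. Of the 10 coagulation and contact genes listed, 9 were measured (all but Klkb1) and 4 were detected. F7 was past 2-fold towards replicate 1 (24.1 TPM in replicate 1 and 7.89 TPM in replicate 2). F10 was past 2-fold towards replicate 2 (5.36 and 17.3 TPM).

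Other members of clades A and I were weak. Serpina9, known in human from germinal centre B cells, had 2.39 TPM in replicate 1 and 1.28 TPM in replicate 2. Serpina7, the thyroxine-binding globulin, which carries hormone and inhibits no protease, had 10 counts in each library. The adipokine vaspin, Serpina12, had 13 counts in replicate 1 and 1 in replicate 2; the ratio was 10.8 with an interval of 1.63 to 461. Serpini1, the neuronal inhibitor neuroserpin, had 24 counts in replicate 1 and 9 in replicate 2. At these counts the intervals are wide, and that of Serpini1 (0.998 to 5.44) includes 1.

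The clade B genes fall in 2 clusters, with 15 genes on chromosome 13 and 11 on chromosome 1, and the clusters behaved differently. On chromosome 13, 4 genes were detected in both libraries and none of the 4 with enough counts was 2-fold apart with TMM scaling. The summed level over the cluster was 177 TPM in replicate 1 and 102 TPM in replicate 2, a fold of counts of 1.44 (1.40 to 1.49). On chromosome 1, 5 of the 6 genes with enough counts passed 2-fold towards replicate 1, and the cluster summed to 80.5 TPM in replicate 1 and 2.20 TPM in replicate 2, a fold of 13.2 (11.8 to 15.0).

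Serpinb6a led the chromosome 13 cluster, with 114 TPM in replicate 1 and 54.5 TPM in replicate 2. It is an intracellular inhibitor that holds cathepsin G, and its fold of 1.92 (1.83 to 2.02) came just under the 2-fold rule, which it passed with library-size scaling and on TPM. Serpinb6b had 28.2 TPM in replicate 1 and 26.5 TPM in replicate 2 (fold 0.917, 0.859 to 0.978). Serpinb6a and Serpinb6b thus differed in how unequal the libraries were. Serpinb9, which protects cells from granzyme B, had 25.8 TPM in replicate 1 and 16.2 TPM in replicate 2 (fold 1.36, 1.28 to 1.44). Serpinb1a, the inhibitor of neutrophil elastase, proteinase 3 and cathepsin G, had 8.42 TPM in replicate 1 and 4.45 TPM in replicate 2 (fold 1.62, 1.39 to 1.88). Serpinb1b had 21 counts in replicate 1 and 6 in replicate 2, and Serpinb9b had 21 and 32. All 8 neutrophil markers had counts in both libraries and summed to 144 TPM in replicate 1 and 52.0 TPM in replicate 2. Of the 7 with enough counts, 4 were 2-fold or more higher in replicate 1, against 4.45% of all genes. The part of neutrophils in the Serpinb1a and Serpinb6a values was not tested.

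Many genes of the cluster were silent. Of its 15 genes, 8 had no counts in either library, among them 5 of the 7 Serpinb9 genes, whose coding sequences are 74.5% to 98.7% identical in pairs. The 3 detected granzymes of 9 listed were Gzma, with 5.67 TPM in replicate 1 and 5.68 TPM in replicate 2, Gzmb, with 1.74 and 2.28 TPM, and Gzmm, with 1.35 and 1.45 TPM. Serpinb9 mRNA thus stood above that of Gzmb in both libraries. Of the 8 cathepsin and caspase genes, 7 were detected and none of those 7 was 2-fold apart, led by Ctsz (223 TPM in replicate 1 and 214 TPM in replicate 2), Ctsc (161 and 217 TPM) and Ctsb (190 and 166 TPM). Casp1, below the count minimum, had 48 counts in replicate 1 and 19 in replicate 2 (fold 2.11, 1.22 to 3.80).

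Nearly all the mRNA of the chromosome 1 cluster came from replicate 1. Serpinb12, an inhibitor of trypsin-like proteases, had 2033 counts in replicate 1 and 1 in replicate 2, or 39.6 and 0.02 TPM. Serpinb3a, a mouse relative of the human squamous cell carcinoma antigens, had 1274 counts in replicate 1 and 0 in replicate 2, or 25.1 TPM in replicate 1. Serpinb5, maspin, which is expressed in squamous and glandular epithelia, had 301 counts in replicate 1 and 2 in replicate 2. Replicate 2 thus held at most 2 counts of each; the ratio of Serpinb12 was 1700 (304 to 67000) and that of Serpinb5 was 126 (34.5 to 1040). A count of 0 allows 3 counts per library, and against that floor Serpinb3a was at least 354-fold higher in replicate 1; the lower limit of the exact interval, which also carries the counting error of replicate 1, was 288.

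The weaker genes of the cluster had the same direction. Serpinb2, plasminogen activator inhibitor 2, had 198 counts in replicate 1 and 15 in replicate 2; the fold was 11 (6.52 to 20). Serpinb11 had 141 counts in replicate 1 and none in replicate 2, at least 39.2-fold higher against the floor of 3 counts, with an exact lower limit of 31.5. Serpinb7, known as megsin, had 39 counts, Serpinb13, a cathepsin inhibitor of human keratinocytes, had 35 and Serpinb3b had 13, each in replicate 1 and without counts in replicate 2. Against the same floor they were at least 10.8-fold, 9.73-fold and 3.62-fold higher in replicate 1, with exact lower limits of 8.41, 7.51 and 2.54. Serpinb8, a furin inhibitor in human, was the exception, being detected in both with 4.61 TPM in replicate 1 and 1.92 TPM in replicate 2 (fold 1.76, 1.52 to 2.04). Annotated spans overlap on the same strand for Serpinb2 with Serpinb10, which had 30 counts in replicate 1 and 5 in replicate 2, and for Serpinb3b with Serpinb3c, which had 8 counts in replicate 1 and none in replicate 2. The posterior SD of the count was 1.5 for Serpinb2 in replicate 1 and 0 for Serpinb3b and Serpinb3c in both libraries.

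The 10 squamous epithelium markers had the same pattern. All had counts in replicate 1 and all passed 2-fold towards it, against 4.45% of all genes. Of the 10 markers, 4 (Krt6a, Krtdap, Crct1 and Lce3c) were at 0 in replicate 2. Krt13, a keratin of stratified lining epithelia, had 1725 TPM in replicate 1 and 0.24 TPM in replicate 2. With Serpinb12 at 39.6 TPM in replicate 1, the cluster's leading gene was far below that keratin. The part of squamous epithelium in the chromosome 1 values was not tested.

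Other protease genes of surface epithelia were divided in the same way. Of 13 epithelial membrane and secreted proteases, 9 were detected. Of 11 with enough counts, 5 were 2-fold or more higher in replicate 1 (Tmprss11d, Tmprss13, Klk7, Klk10 and Klk13), against 4.45% of all genes. Klk10, a kallikrein-related peptidase, had 106 TPM in replicate 1 and 1.59 TPM in replicate 2, a fold of 57.0 (44.5 to 74.1). Prss8, prostasin, the channel-activating protease of lung epithelium, had 136 TPM in replicate 1 and 140 TPM in replicate 2, and St14, matriptase, had 41.5 and 39.1 TPM. Neither was 2-fold apart.

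Inhibitors of other families showed both patterns. Of 17 genes, 12 were detected. Of the 15 with enough counts, 3 passed 2-fold towards replicate 1 (Slpi, Cst6 and Spink5), against 4.45% of all genes. Slpi, the secretory leukocyte protease inhibitor, had 588 TPM in replicate 1 and 60.3 TPM in replicate 2, a fold of 7.49 (6.99 to 8.03). Cst3, cystatin C, had 1866 TPM in replicate 1 and 1755 TPM in replicate 2, and Wfdc2 had 1139 and 1507 TPM, so both stood above Serping1 in each library. Timp2, which inhibits metalloproteases, had 352 TPM in replicate 1 and 329 TPM in replicate 2.

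Promoters of the chromosome 1 cluster are shown because all 8 of its genes averaging 10 counts or more were higher in replicate 1. The RefSeq table (GRCm38.p6) held windows from 250 bases before to 50 after the start site for 52 of the 61 genes, 61 windows in all. The 250 bases before the start are printed 5′ to 3′ on the gene's strand for Serpinb12 (chr1:106934199-106934448, plus strand), Serpinb7 (chr1:107422439-107422688, plus strand) and Serpinb3a (chr1:107052304-107052553, minus strand). A second Serpinb12 window, at another start site, holds no TGANTCA match, and its upstream bases (chr1:106938707-106938956) are printed after the first. Capitals mark the letters TGANTCA, of which TGAGTCA and TGACTCA are the AP-1 site, and TATAAA, searched on both strands.
Serpinb12: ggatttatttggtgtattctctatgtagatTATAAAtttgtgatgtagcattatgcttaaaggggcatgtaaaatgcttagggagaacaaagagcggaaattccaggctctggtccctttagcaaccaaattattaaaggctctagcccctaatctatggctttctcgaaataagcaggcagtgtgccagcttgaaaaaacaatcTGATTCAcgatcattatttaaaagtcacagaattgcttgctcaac
Serpinb12 (second window): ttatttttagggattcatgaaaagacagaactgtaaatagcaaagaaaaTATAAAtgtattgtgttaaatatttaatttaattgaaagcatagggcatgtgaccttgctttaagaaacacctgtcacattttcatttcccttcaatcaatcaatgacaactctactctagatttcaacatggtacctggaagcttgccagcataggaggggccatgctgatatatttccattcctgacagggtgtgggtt
Serpinb7: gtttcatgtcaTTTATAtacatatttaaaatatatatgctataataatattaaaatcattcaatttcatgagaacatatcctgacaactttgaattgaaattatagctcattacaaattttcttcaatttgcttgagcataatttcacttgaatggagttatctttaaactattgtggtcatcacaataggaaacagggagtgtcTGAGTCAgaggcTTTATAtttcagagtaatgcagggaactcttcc
Serpinb3a: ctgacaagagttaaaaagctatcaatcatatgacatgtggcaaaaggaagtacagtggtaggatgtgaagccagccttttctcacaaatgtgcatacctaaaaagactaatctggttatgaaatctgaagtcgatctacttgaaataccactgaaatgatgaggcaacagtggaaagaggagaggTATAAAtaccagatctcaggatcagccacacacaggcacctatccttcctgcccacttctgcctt
TGANTCA was found in 7 of the 12 windows of the chromosome 1 cluster (58.3%), in 0 of 18 windows of the chromosome 13 cluster, and in 7.81% of all 32851 windows. The AP-1 letters alone were found in 2 of the 12 (16.7%), those of Serpinb7 and Serpinb8, in 0 of the 18 and in 5.2% of all windows. TATAAA was found in 9 of the 12 (75%), in 11.1% of the chromosome 13 windows and in 13.6% of all windows. Another set of letters, TTCNNNGAA, was found in 16.7%, 11.1% and 8.30% of the same windows. Overlapping windows of Serpinb2 hold the same TGANTCA and TATAAA matches and were counted separately. The TATAAA windows include those of all 4 Serpinb3 genes, whose coding sequences are 86.3% to 93.1% identical in pairs. The motifs do not overlap in the printed runs, some genes have more than 1 window, and a match is a description of letters only.

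Receptors and cofactors that clear or localise serpin complexes were mostly well expressed. Of 13 genes, 11 were detected and none of the 11 with enough counts was 2-fold apart. The kininogen gene Kng2 had 20 counts in replicate 1 and 1 in replicate 2; the ratio was 16.7 (2.67 to 692). Lrp1, the endocytic receptor of serpin and protease complexes, had 220 TPM in replicate 1 and 200 TPM in replicate 2. The heparan sulphate carrier Sdc1 had 174 TPM in replicate 1 and 189 TPM in replicate 2, and Vtn, the adhesive matrix protein vitronectin, had 27.3 and 23.2 TPM.

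The leading transcript of a detected serpin was shared by the libraries, but it was not always the full-length one. All 15 detected serpins with more than 1 transcript had the same transcript of highest TPM in both libraries, against 8353 of 9846 genes over the whole table (84.8%). For Serping1 the coding transcript Serping1-201 held 63.2% of the gene's TPM in replicate 1 and 61.6% in replicate 2. A non-coding processed transcript of 903 bases and 2 exons near the start of the gene, Serping1-203, held 36.7% in replicate 1 and 38.2% in replicate 2. Serpinh1-201 held 84.9% of Serpinh1 in replicate 1 and 79.7% in replicate 2. The remaining share of Serpinh1 was on Serpinh1-202, annotated with a coding length of 1251 bases like Serpinh1-201.

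Serpinf1 was mostly assigned to a short form. Serpinf1-202, an annotated coding transcript of 605 bases with 4 exons over the first part of the gene, accounted for 75.2% of TPM in replicate 1 and for 83.1% in replicate 2. The 8-exon Serpinf1-201 held 6.40% in replicate 1 and 6.42% in replicate 2. By share of counts, which does not divide by length, Serpinf1-202 held 55.0% and 64.5% and Serpinf1-201 held 19.2% and 20.4% in replicates 1 and 2. In Serpine2 the order depended on that measure. Serpine2-203, a fragment of 696 bases annotated without its start or end, held 58.9% of TPM but 26% of counts in replicate 1, and 50.04% of TPM but 19.8% of counts in replicate 2. Since gene TPM sums over transcripts, gene levels of Serpinf1 and Serpine2 rest in large part on these short models.

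Clade B genes also had a divided output. Serpinb6b-201, which is annotated as a target of nonsense-mediated decay, held 31.9% of Serpinb6b TPM in replicate 1 and 41.0% in replicate 2, and the coding Serpinb6b-202 held 65.4% and 58.2%. Of the 17 transcripts of Serpinb6a, Serpinb6a-202 held 54.5% in replicate 1 and 46.1% in replicate 2. Serpinb8 was the least even, with Serpinb8-201 at 40.6% in replicate 1 and 10.6% in replicate 2, on 188 and 20.1 expected counts. The posterior SD of those counts was 33.9 in replicate 1 and 19.3 in replicate 2.

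**Figure D4:**
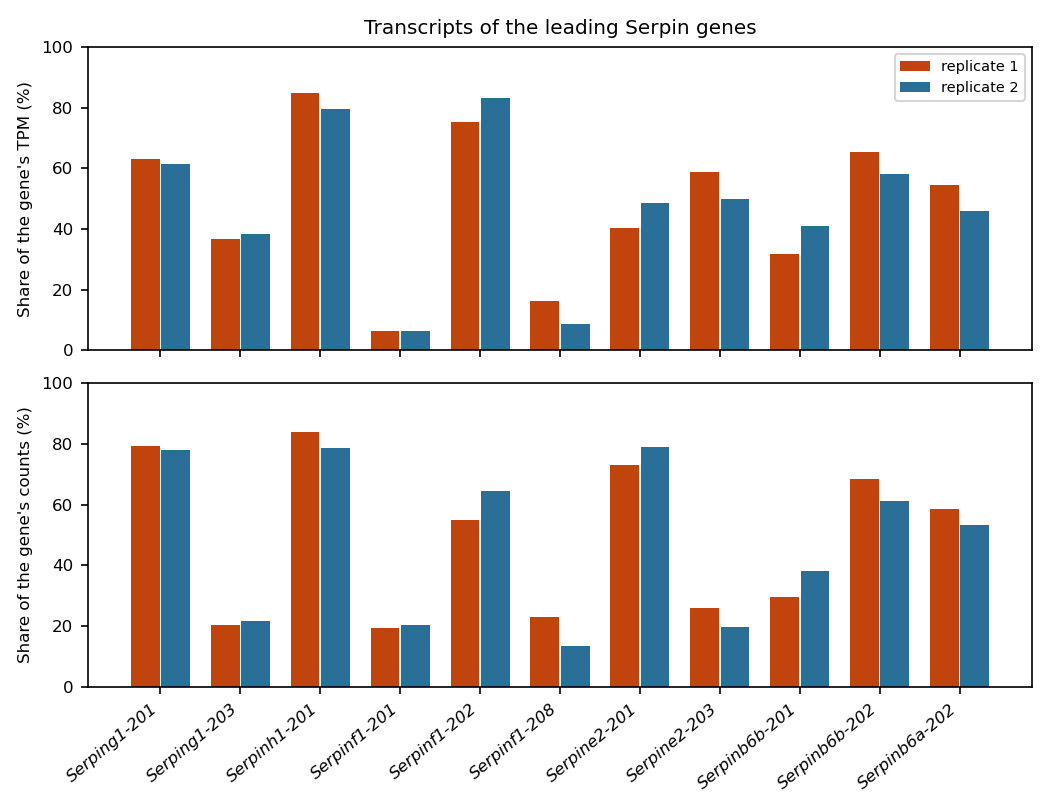
Share of the gene's TPM (upper panel) and of its expected counts (lower panel), in percent, for transcripts of 6 leading serpins in replicate 1 (left bars) and replicate 2 (right bars). Serpinf1-202 stands above Serpinf1-201 in both panels, and Serpine2-203 exceeds Serpine2-201 by TPM but not by counts.

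Of the 61 genes, 31 were under 1 TPM in both libraries, and 15 had no counts in either, against 3936 of 21474 protein-coding genes. Those 15 were 4 genes of clade A, 9 of clade B and 1 each of clades E and I. A further 6 had under 10 counts in each library. In a library of this size a count of 0 allows a level of up to 0.0622 CPM in replicate 1 and 0.0679 CPM in replicate 2 (counts scaled to the library total), so lower expression was not detectable. Another 11 genes reached 1 TPM in replicate 1 only and 1, Serpina3m, in replicate 2 only. Over all 21474 protein-coding genes, 734 reached it in replicate 1 only and 164 in replicate 2 only. Of the 11 serpins, 6 were clade B genes of chromosome 1.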

How the data were processed

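Expected counts, TPM and FPKM per gene and transcript, with each transcript's percent of its gene's TPM, were deposited by the authors. Expected counts are estimated fragment numbers, not normalized; TPM and FPKM are scaled by length and library, per the file headers. The deposited posterior SD of counts and bounds on TPM are signal-like values never below 0, with settings not stated here. The build was mm10 with GENCODE M4, per the deposited file lists. Aligner and quantifier: not given in the sources used here. Symbols came from GENCODE M21, with 42462 of 43346 gene rows matched.

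Expected counts were rounded and scaled by TMM (edgeR 4.0.16 in R 4.3.3; DESeq2 1.42.0 size factors as an alternative), and log2 ratios of CPM used a prior count of 2. With 1 group no test was made. Folds are ratios of TMM-scaled counts with exact Clopper-Pearson 95% intervals, which cover counting error only. A bound for a count of 0 assumes 3 counts in that library. Python 3.11.15, numpy 2.4.6, pandas 2.3.3, scipy 1.17.1 and Biopython 1.88 were used for the rest, and the code was tested on simulated data.

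Loops were the 23 codons from the last glycine of a Glu-x-Gly motif near the carboxyl end. Serpins at 1 TPM or 10 counts in either library are named, except 1 that enters the counts but is not reported here; list members are named when among the 3 highest of a list, at 20 TPM or more, or 2-fold apart, and others (Gzmm, Elane, Plg) were picked with their values in view. The members and lists were chosen with earlier results of these data known. Lists of mm9 contigs and junctions were not used here.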

Additional observations from a re-analysis of the deposited data

How the results depend on the processing

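The 18 serpins detected became 30 at 0.1 TPM, 11 at 5 TPM and 30 with at least 10 expected counts in both libraries, and 19 to 29 with either library alone. The share of 0.154% of TPM was 0.172% of expected counts, 0.171% of protein-coding TPM, and 0.142% to 0.166% with either library alone. The 12 of 28 serpins 2-fold apart became 22 of 61 with no count minimum, against 7.51% of all genes, and 7 of 22 without the clade B genes of chromosome 1, a setting chosen after the data were seen, under which the median log2 ratio of 0.47 became 0.15. The median was otherwise 0.45 to 0.67, and setting genes without counts in replicate 2 at their bounds left it at 0.47. The same main transcript was found in 9 of 9 serpins at 5 TPM and in 19 of 23 at 0.1 TPM. Among 160 recomputed ratios of 40 serpins, 18 moved by more than 0.459, the robust SD of the log2 ratio over all genes. The sign of the log2 ratio depended on the setting for 6 serpins, each negative with TMM, from -0.345 for Serpina3i to -0.003 for Serpina3n. On log2(TPM + 0.1) alone it was positive for Serpina3i (0.30) and Serpina7 (0.06). With library size and on log2(TPM + 0.1) it was positive for Serpina3n (0.13 and 0.22) and Serpinb6b (0.01 and 0.09). The same held for Serpinf1 (0.12 and 0.13) and Serpinh1 (0.08 and 0.18). These 2 settings also moved the median log2 ratio of all genes, from 0.019 with TMM to 0.152 and 0.219. The cause of the sign changes was not tested. No paired analysis was possible because both libraries belong to 1 group. Precision is limited by 2 libraries and, for serpins under 100 counts, by counting error.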

Other observations

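Of the 7 Serpin genes outside the protein-coding class, 1 reached 1 TPM in both libraries. The transcribed pseudogene Serpina3h had 58 counts in replicate 1 and 47 in replicate 2, at 1.57 and 1.31 TPM, and Serpinb10, annotated as a polymorphic pseudogene, had 30 and 5 counts. The others had at most 2 counts in a library.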
